A study of Homo sapiens with 4 samples.

Results

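The transcription factors that set and end B cell identity were measured in Raji cells, an established Burkitt lymphoma B cell line that carries Epstein-Barr virus. The list holds 10 factors, chosen by name from the factors known for B cells, germinal centre B cells and plasma cells, and 9 of them had an identifier among the 51714 Ensembl genes of the deposited files. These were PAX5, EBF1, POU2AF1, POU2F2, BCL6, IRF4, IRF8, PRDM1 and XBP1. No identifier was paired with the symbol SPIB in the name tables used, so SPIB, an ETS factor of B cells, was not analysed here. The choice used no measured values of the comparison, although it was made with earlier results of these data known.

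The compared cells differed in RPB1, the catalytic subunit of RNA polymerase II. The R1810A group (2 libraries) expressed a recombinant, HA-tagged, α-amanitin-resistant RPB1 in which alanine replaces an arginine of the C-terminal domain, so that this residue cannot be methylated. The WT group (2 libraries) expressed the same tagged, resistant subunit with the arginine in place. Both groups were polyclonal batches that had been transfected by electroporation, selected with G418 and then kept in α-amanitin for 10 days, so neither represents unmanipulated Raji cells. The comparison asks how transcription fares when this residue can no longer be methylated. Replicates are not described as separate cultures, and the spread behind every p-value may for that reason be technical.

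In B cell development EBF1 and PAX5 switch on the B lineage programme and PAX5 holds it in place. POU2F2 (OCT2) binds the octamer element of immunoglobulin and other B cell promoters, and POU2AF1 (OCA-B) is the coactivator that docks on it there. BCL6 is the repressor that maintains the germinal centre state from which Burkitt lymphoma arises, and IRF8 is high in the same cells. IRF4, PRDM1 (Blimp-1) and XBP1 drive the passage to the antibody-secreting plasma cell: IRF4 and PRDM1 turn the germinal centre programme down, and XBP1 expands the secretory apparatus.

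XBP1 messenger RNA exists in forms that a count per gene merges, and the difference between them is shown here because only one of them codes for the strong activator. The endonuclease IRE1 excises a short stretch of the coding sequence, which shifts the reading frame. The GENCODE 29 transcripts of the gene, on the minus strand of chromosome 22, include a longer form with 26 bases that a shorter form lacks at this place, given in capitals and flanked by 30 bases on each side, 5′ to 3′. Repeated letters at its borders allow 7 equivalent placements, and the one after a CAG on both sides is printed.
XBP1 longer form: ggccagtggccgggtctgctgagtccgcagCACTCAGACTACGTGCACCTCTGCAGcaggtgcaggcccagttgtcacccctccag
XBP1 shorter form: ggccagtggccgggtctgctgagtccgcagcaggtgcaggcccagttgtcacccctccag
All XBP1 values below therefore refer to total XBP1 RNA, and the share of the excised form was not measured.

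Libraries held 2116444 and 2081636 summed gene counts for R1810A and 2326036 and 2991959 for WT. POLR2A, the gene of the replaced subunit, had 1987 and 2170 reads in R1810A cells and 1999 and 2567 in WT cells. Its count merges vector and endogenous RNA, so it is no check of the labels. All 10 B cell identity markers fixed for this check were measured, with CD74 at a mean of 806 RPKM (reads scaled by gene length and total reads, as deposited) and HLA-DRA at 1197 RPKM. Of 16 T cell and NK cell markers found, 7 had no read in any library, CD3D, CD2, CD5 and CD7 among them. The list summed to 9 and 6 reads in R1810A and 14 and 13 reads in WT. Of 15 myeloid markers, 5 had no read, among them CEBPA and S100A8. CSF1R, the receptor of a macrophage growth factor, gave most myeloid reads, with 508 and 324 in R1810A and 445 and 394 in WT.

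Per kilobase of gene, the factors fell into 4 tiers. XBP1, POU2AF1 and IRF8 formed the highest, PAX5 and POU2F2 the next, BCL6, EBF1 and IRF4 the third, and PRDM1 stood far below. Means over all 4 libraries on the deposited RPKM scale were 53.0 for XBP1, 44.2 for POU2AF1 and 42.4 for IRF8. They were 14.0 for PAX5, 13.6 for POU2F2, 4.08 for BCL6, 3.12 for EBF1, 2.73 for IRF4 and 0.279 for PRDM1. Within a tier, the ranges of neighbouring factors over the 4 libraries overlapped. XBP1 was nevertheless the highest in each of the 4 libraries, with POU2AF1 at 0.798 and 0.939 times its RPKM in R1810A and 0.791 and 0.825 times in WT, whereas the order of the other neighbours within a tier differed between libraries. Between tiers they did not: IRF8 was at 40.0 RPKM or more in every library and PAX5 at 15.7 or less, POU2F2 at 13.1 or more and BCL6 at 5.02 or less. IRF4 was at 1.22 or more and PRDM1 at 0.418 or less. XBP1 was higher than 94.6% of the 10674 genes tested, whereas BCL6 was higher than 35.3% and IRF4 than 24.0% of them. Of the plasma cell factors, XBP1 was thus at the top and PRDM1 at the bottom of the same list.

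**Figure D1:**
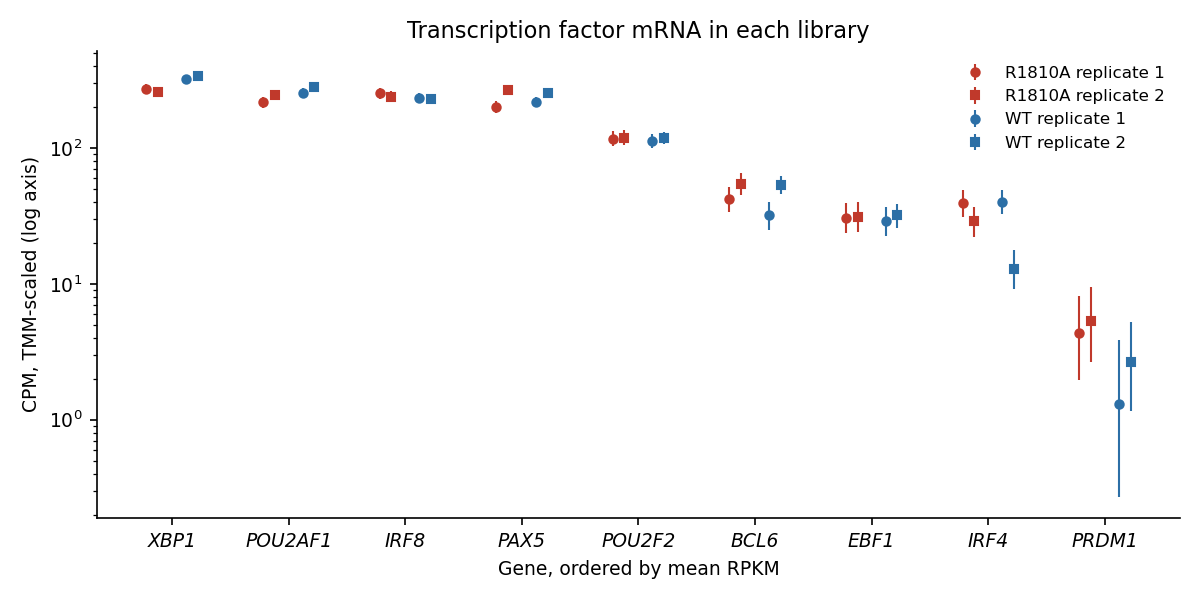
Read counts relative to library size (CPM, TMM-scaled, log axis) of the 9 factors in each library, with R1810A in red left of WT in blue, circles for replicate 1, squares for replicate 2, and bars for the exact 95% Poisson interval of the read count. The points of most factors lie close together in all 4 libraries, IRF4 has 1 low WT library at 13.0 CPM, and PRDM1 lies below 6 CPM throughout.

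In the comparison of R1810A with WT cells, no factor passed the threshold. Of the 9 factors, 8 passed the filter on low counts and were tested. With the quasi-likelihood test of edgeR and Benjamini-Hochberg adjustment over all 10674 genes, 0 were higher and 0 lower at an adjusted p under 0.05, as also with DESeq2 and with limma-voom. Among all genes tested 0.356% passed, 0.347% higher and 0.00937% lower. At an unadjusted p under 0.05, 0 factors were higher and 1, XBP1, was lower, where 4.94% and 3.06% of all genes were. The groups did not overlap in TMM-scaled CPM for 3 of the 8 (XBP1, POU2AF1 and IRF8), or 37.5%, close to the 39.3% of all genes. IRF8 was the 1 with R1810A above WT, as 19.8% of all genes were, and XBP1 and POU2AF1 the 2 with R1810A below WT, as 19.5% were. The median log2 fold change of the 8 factors was 0.025, beside -0.005 over all genes. Folds are R1810A over WT. The SE given with a log2 fold change is its size divided by the square root of the edgeR F statistic, and intervals are those of limma-voom at 95%, not adjusted for the number of genes. In bulk RNA, fewer cells with a transcript and less of it per cell cannot be told apart.

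**Figure D2:**
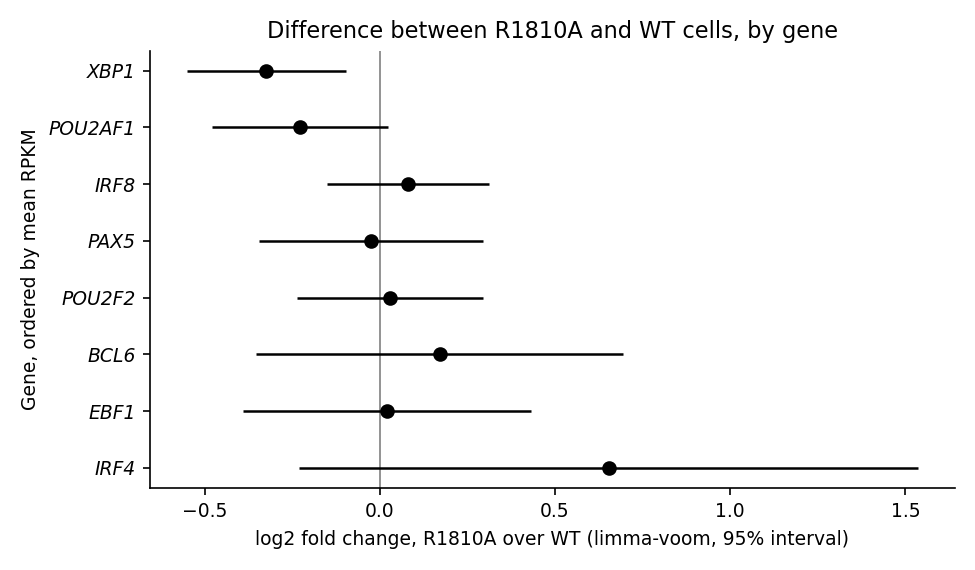
The log2 fold change by limma-voom (points) of the 8 tested factors, R1810A over WT, with its 95% interval (lines), ordered from the highest mean RPKM down. XBP1 alone has an interval that leaves out 0, and the intervals of BCL6, EBF1 and IRF4, which have the fewest reads, are the widest.

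PAX5 (ENSG00000196092, chromosome 9), the keeper of B cell commitment, was at nearly the same mean in both groups. It had 420 and 561 reads in R1810A libraries and 501 and 765 in WT libraries, or 201 and 269.9 CPM against 219.5 and 255 CPM. The R1810A libraries lay on either side of both WT libraries. Group means were 236 ± 48.4 CPM in R1810A and 237 ± 24.8 CPM in WT (SD, n = 2 each), a log2 fold change of -0.01 (SE 0.14, edgeR adjusted p = 0.986). The limma-voom interval ran from -0.34 to 0.29. EBF1 (ENSG00000164330, chromosome 5), which acts with PAX5 in specifying the lineage, was the most even of the low factors. Its 4 libraries held 30.7 and 31.3 CPM in R1810A and 28.9 and 32.0 CPM in WT, and the WT values enclosed the others. EBF1 thus had a log2 fold change of 0.02 (SE 0.19, edgeR adjusted p = 0.983), with an interval of -0.39 to 0.43 that rests on 64 and 65 reads in R1810A and 66 and 96 in WT. An antisense gene overlaps exons of PAX5, and another those of BCL6, in the GENCODE annotation, and strand-specific counting is not documented. The first had 0 reads in all libraries and the second 1 read in 1 WT library.

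POU2F2 (ENSG00000028277, chromosome 19), the octamer factor, was measured at 117 and 119.8 CPM in R1810A and 113 and 119 CPM in WT. All 4 values lay within a narrow band and the groups overlapped. For POU2F2 the log2 fold change was 0.03 (SE 0.12, edgeR adjusted p = 0.969; limma-voom interval -0.24 to 0.29). Its coactivator POU2AF1 (ENSG00000110777, chromosome 11) had 454 and 511 reads in R1810A and 586 and 854 in WT, or 218 and 246 CPM against 257 and 284 CPM. Both R1810A libraries lay below both WT libraries. Means of 232 ± 19.9 CPM in R1810A and 271 ± 19.5 CPM in WT (SD, n = 2 each) gave a log2 fold change of -0.22 (SE 0.12, edgeR adjusted p = 0.654), and the limma-voom interval of -0.48 to 0.02 includes 0. The RPKM of the coactivator was 2.81 and 3.11 times that of POU2F2 in R1810A and 3.43 and 3.62 times in WT. This ratio, formed after the values were seen and given without a test, did not overlap between the groups. Neither did POU2AF1 alone, and in TMM-scaled CPM the groups did not overlap for 39.3% of all genes.

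XBP1 (ENSG00000100219, chromosome 22) had the smallest p of the factors. It had 566 and 541 reads in R1810A and 737 and 1029 in WT, which is 271 and 260.3 CPM against 323 and 343 CPM. Both R1810A libraries lay below both WT libraries, and the exact Poisson intervals, which cover counting error only, did not meet: the highest bound in R1810A was 295 CPM and the lowest in WT 300.04 CPM. Group means were 266 ± 7.89 CPM in R1810A and 333 ± 13.9 CPM in WT (SD, n = 2 each). The log2 fold change was -0.32 (SE 0.11, 0.799-fold, edgeR adjusted p = 0.407), with a limma-voom interval of -0.55 to -0.10. Over the 14 alternatives it stayed between -0.45 and -0.28, with adjusted p of 0.12 or more. Its direction was the same in each of these and the call was made in none.

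PRDM1 (ENSG00000057657, chromosome 6), the repressor that completes plasma cell differentiation, was barely detected and did not pass the filter. It had 9 and 11 reads in R1810A and 3 and 8 in WT, or 4.32 and 5.29 CPM against 1.31 and 2.66 CPM. The R1810A values were the higher ones, but the Poisson intervals overlapped. The summed 20 reads in R1810A and 11 in WT give a ratio of 2.31 with a counting interval of 1.05 to 5.33 that leaves out any spread between libraries. Fitted by edgeR with no filter, the log2 fold change was 1.18 (adjusted p = 0.831).

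IRF8 (ENSG00000140968, chromosome 16), a factor of germinal centre B cells and of myeloid cells, was measured with 528 and 498 reads in R1810A and 535 and 695 in WT. On the TMM scale these are 253 and 239.6 CPM against 234 and 231 CPM, with both R1810A libraries above both WT libraries. On the deposited RPKM scale, which divides by the total reads, the groups overlapped, with 43.6 and 40.0 in R1810A against 43.3 and 42.7 in WT. For IRF8 the log2 fold change was 0.08 (SE 0.11, edgeR adjusted p = 0.876; limma-voom interval -0.15 to 0.31), and -0.04 with scaling by total reads.

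**Figure D3:**
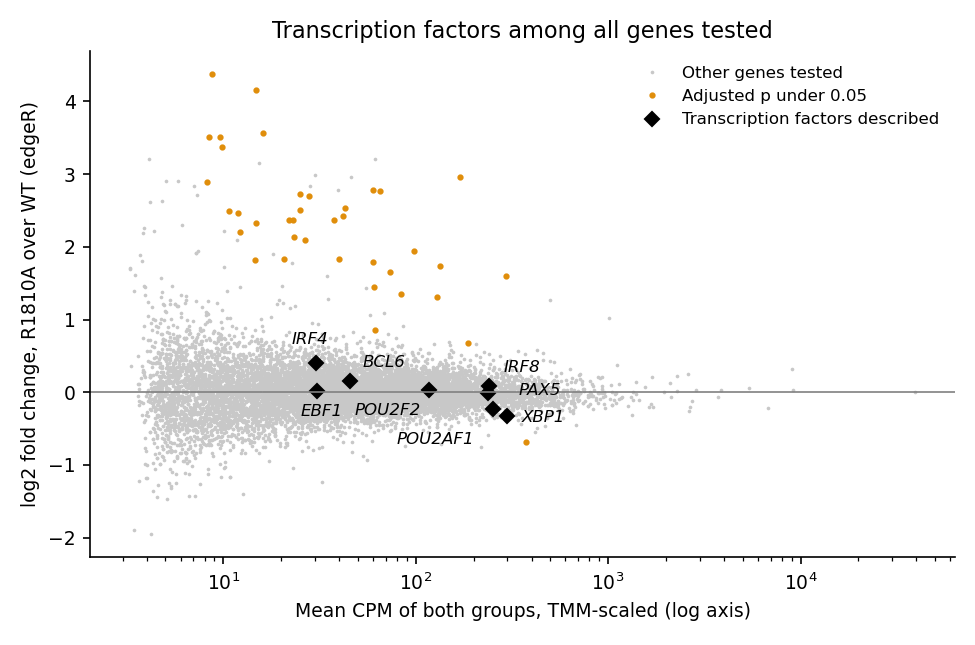
The log2 fold change, R1810A over WT by edgeR, against the mean CPM of both groups (log axis) for all 10674 genes tested, with the 8 tested factors as black diamonds and the genes at an adjusted p under 0.05 in orange. The factors lie within the grey cloud between -0.32 (XBP1) and 0.41 (IRF4).

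IRF4 and BCL6 differed more between libraries of the same group than between the groups, as PAX5 and EBF1 also did. IRF4 (ENSG00000137265, chromosome 6) had 82 and 60 reads in R1810A and 92 and 39 in WT, or 39.3 and 28.9 CPM against 40.3 and 13.0 CPM. WT replicate 2 was low, with a Poisson interval of 9.23 to 17.7 CPM, and the other 3 libraries were higher, the lowest of their bounds being 22.0 CPM. Means were 34.1 ± 7.39 CPM in R1810A and 26.6 ± 19.3 CPM in WT (SD, n = 2 each). The log2 fold change was 0.41 by edgeR (SE 0.40, edgeR adjusted p = 0.821) and 0.65 by limma-voom (interval -0.23 to 1.54). The edgeR value depended on which WT library was kept. With WT replicate 2 left out it was -0.24 (edgeR adjusted p = 0.742), and with WT replicate 1 left out 1.39 (edgeR adjusted p = 0.085).

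BCL6 (ENSG00000113916, chromosome 3) had 88 and 113 reads in R1810A and 73 and 161 in WT, or 42.2 and 54.4 CPM against 32.0 and 53.6 CPM. Here WT replicate 1 was the low library. Means of 48.3 ± 8.60 CPM in R1810A and 42.8 ± 15.3 CPM in WT (SD, n = 2 each) gave a log2 fold change of 0.15 (SE 0.23, edgeR adjusted p = 0.900; limma-voom interval -0.35 to 0.70). Leaving out WT replicate 1 gave -0.15 and leaving out R1810A replicate 2 gave -0.04, so no direction can be given.

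Within each group the library with more IRF4 had less BCL6. In WT, replicate 1 over replicate 2 was 1.63 on the log2 scale for IRF4 and -0.74 for BCL6. In R1810A it was 0.45 and -0.37. PAX5, POU2AF1, POU2F2 and EBF1 were also lower in replicate 1 of each group, with PAX5 at -0.21 in WT and -0.42 in R1810A. A WT gap at least as large as that of IRF4 was found in 0.628% of all genes tested, and one as large as that of BCL6 in 7.03%. In R1810A the corresponding shares were 15.1% and 20.2%. The RPKM ratio of IRF4 to BCL6 was 0.936 and 0.534 in R1810A and 1.27 and 0.243 in WT, so the WT libraries enclosed both R1810A libraries. This pairing of the genes was noticed in the values, rests on 4 libraries and was given no test. IRF4 is known to repress the BCL6 gene as germinal centre B cells differentiate, but whether it did so in these cells was not tested.

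Of 19 genes listed as repressed by BCL6, 14 were tested. Several of them, such as EBI3, CD80 and BCL2L1, are also known to respond to NF-κB signalling. Of these 14, 11 were higher in WT replicate 1, the library with less BCL6, than in WT replicate 2, with a median log2 gap of 0.67. Over all genes the share was 48.9% and the median -0.009. Among them GPR183, a receptor that positions B cells within follicles, had a WT gap of 1.51, and the cytokine subunit gene EBI3 had one of 1.49. The activation marker CD80 (0.88) and the cell cycle inhibitor CDKN1A (0.69) followed, whereas CDKN1B, another such inhibitor, was at -0.28. In R1810A, where BCL6 was also lower in replicate 1, 6 of the 14 were higher in that replicate and the median gap was -0.04. Of the 10 B cell identity markers, which are not on that list, 8 were also higher in WT replicate 1, with a smaller median log2 gap of 0.26. In R1810A replicate 1, 0 of the 10 were higher, where 49.1% of all genes were. The part of these differences between libraries in the values of IRF4 and BCL6 was not tested.

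**Figure D4:**
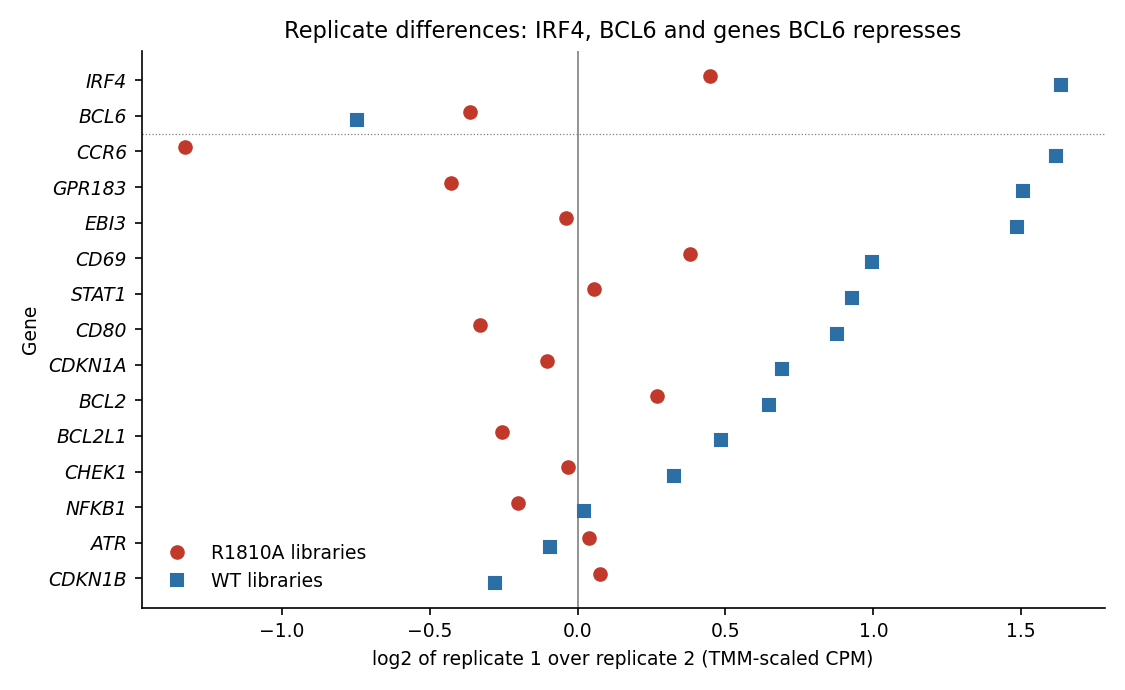
The log2 of replicate 1 over replicate 2 (TMM-scaled CPM) within R1810A (red circles) and within WT (blue squares) for IRF4, BCL6 and, below the dotted line, tested genes listed as repressed by BCL6, of which 1 is not shown. In WT most of the list lies to the right of 0 with IRF4 while BCL6 lies to the left, and the R1810A points of the list lie on both sides.

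Between the groups, that list held 0 genes called higher and 0 called lower by edgeR, DESeq2 or limma-voom, and 0 at an unadjusted p under 0.05. Its median log2 fold change was 0.16. Leaving out WT replicate 1 raised it to 0.45, leaving out WT replicate 2 gave -0.20, and leaving out R1810A replicate 2 gave 0.102. GPR183 stood at 0.68 (SE 0.39, edgeR adjusted p = 0.677).

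Genes that PAX5, EBF1 and the octamer and ETS factors are known to activate showed no called member either. Of 23 tested, 0 passed in either direction with edgeR, DESeq2 or limma-voom, 1 was higher and 0 lower at an unadjusted p under 0.05, and the median was 0.10. CD79A and CD79B, the signalling chains of the B cell receptor, were the most abundant, at 569 and 351 RPKM. CD79A stood at a log2 fold change of -0.10 (SE 0.12) and CD79B at 0.09 (SE 0.13). CD72, a B cell coreceptor and a known PAX5 target, had the smallest p, with 124 and 127 CPM in R1810A and 103 and 65.2 CPM in WT (log2 fold change 0.60, SE 0.18, edgeR adjusted p = 0.356). The low-affinity IgE receptor gene FCER2 had 65.7 and 99.6 CPM in R1810A and 74.1 and 34.6 CPM in WT, and its groups overlapped. The median of this list was -0.054 when WT replicate 2, the library in which IRF4 was low, was left out, and was 0.189 when R1810A replicate 1 and 0.007 when R1810A replicate 2 was.

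Germinal centre genes had a median log2 fold change of -0.03 in 21 tested members, with 0 called by edgeR, DESeq2 or limma-voom and 1 higher and 1 lower at an unadjusted p under 0.05. With single libraries dropped the median lay between -0.103 (R1810A replicate 2) and 0.015 (WT replicate 2), and was -0.094 without WT replicate 1. RGS13, a regulator of G protein signalling in germinal centre B cells, had 236 and 258 CPM in R1810A and 194 and 178 CPM in WT (0.41, SE 0.11, edgeR adjusted p = 0.257). TCL1A and MARCKSL1 were the most abundant, at 258 and 180.0 RPKM.

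Plasma cell and secretory genes, which include targets of XBP1, had a median of 0.006 in 26 tested members. There were 0 called by edgeR, DESeq2 or limma-voom, and 2 higher and 2 lower at an unadjusted p under 0.05. With single libraries dropped the median lay between -0.099 (WT replicate 2) and 0.044 (WT replicate 1), and was also negative without R1810A replicate 1 (-0.037) or 2 (-0.021). CD27, a receptor of memory and plasma cells, had 443 and 440.2 CPM in R1810A and 527 and 565 CPM in WT (-0.31, SE 0.10, edgeR adjusted p = 0.458). SPCS1, a subunit of the signal peptidase, had 113 and 113 CPM in R1810A and 90.7 and 85.9 CPM in WT (0.36, SE 0.12, edgeR adjusted p = 0.467), opposite in direction to XBP1. JCHAIN, the joining chain of secreted immunoglobulin, reached 839 RPKM on average and stood at -0.26 (SE 0.12, edgeR adjusted p = 0.623). SDC1, the plasma cell surface marker CD138, had no read in any library, and TNFRSF17 (BCMA) had 2 and 5 reads in R1810A and 8 and 1 in WT.

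Other transcription factors of the B lineage had a median of -0.06 in 25 tested members, with 0 called by edgeR, DESeq2 or limma-voom, and 2 higher and 0 lower at an unadjusted p under 0.05. Dropping R1810A replicate 1 turned the median to 0.101, dropping WT replicate 1 or 2 moved it to -0.034 or -0.007, and dropping R1810A replicate 2 left -0.077. TCF3 (E2A) and IKZF1 (Ikaros) were the most abundant, at means of 86.7 and 51.5 RPKM. By these means TCF3 was above every factor of the main list and IKZF1 above all but XBP1. By library, IKZF1 was below XBP1 only in WT replicate 2 (46.5 against 62.9 RPKM), where POU2AF1 (51.9 RPKM) was also above it. TCF3 stood at -0.19 (SE 0.12) and IKZF1 at -0.07 (SE 0.14). The ETS factor GABPA had 33 and 23 reads in R1810A and 18 and 14 in WT (1.13, SE 0.37, edgeR adjusted p = 0.407). MEF2C, a factor of B cell proliferation, had 147 and 167 CPM in R1810A and 128 and 119 CPM in WT (0.35, SE 0.12, edgeR adjusted p = 0.466).

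Cofactors and modifiers of the factors had a median of 0.11 in 23 tested members, with 0 called by edgeR, DESeq2 or limma-voom and 2 higher and 0 lower at an unadjusted p under 0.05. The median was 0.195 with WT replicate 1 dropped and -0.009 with the deposited total reads, a scaling that moved the median of all genes to -0.126. The groups did not overlap for 14 of the 23, or 60.9%, with R1810A above WT in 11 and below in 3, beside 39.3% of all genes. In the other lists this share was 46.2% of the plasma cell and secretory genes, 44% of the other B lineage factors and 33.3% of the 3 myeloid markers tested. It was 30% of the B cell identity markers and 21.4% of the genes listed as repressed by BCL6. Of the germinal centre genes it was 19%, and of the genes activated by the factors 17.4%. The share was not tested for any list. The acetyltransferase EP300, which acetylates BCL6, had 206 and 219 reads in R1810A and 153 and 196 in WT, or 98.8 and 105 CPM against 67.0 and 65.2 CPM. The R1810A values were the higher ones (log2 fold change 0.63, SE 0.13, edgeR adjusted p = 0.087). The histone demethylase gene KDM1A and the deacetylase gene HDAC1 were the most abundant, at 49.5 and 39.4 RPKM, with log2 fold changes of -0.18 (SE 0.10) and 0.10 (SE 0.12).

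**Figure D5:**
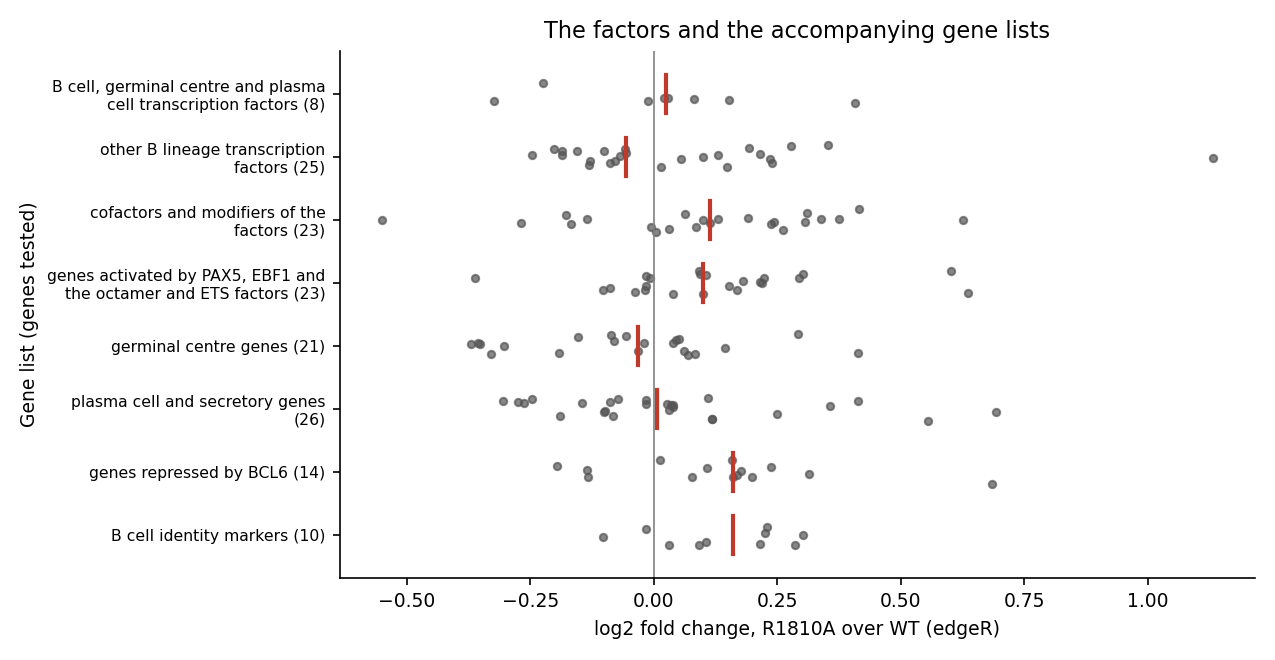
The log2 fold change, R1810A over WT by edgeR, of each tested gene (grey points, spread vertically for legibility) in the factor list and 7 accompanying lists, with the number tested in parentheses and the median as a red bar. All 8 medians lie between -0.06 and 0.16, and 0 of the genes plotted passed an adjusted p under 0.05.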

How the data were processed

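RNA depleted of ribosomal RNA was sequenced on an Illumina GAII, per the labels' protocols. The submitters' processing notes name Bowtie, with no version, and the build hg19. How reads were counted, with which annotation, and with what use of strand or of reads with several matches, is not given there or in the labels. Each file holds whole-number counts per Ensembl gene, which the authors deposited without normalisation, per the file headers. The deposited RPKM equalled the count divided by the deposited gene length and total reads, within a relative tolerance of 0.0001. What those total reads count is not stated.

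Current gene names and GENCODE 29, made on another genome build, gave the symbols, so no coordinates are printed. A symbol was found for 40926 of 51714 identifiers. Genes kept by filterByExpr were tested with edgeR 4.0.16 in R 4.3.3 (TMM, glmQLFit, glmQLFTest, group as the only term), with DESeq2 1.42.0 and limma 3.58.1 (voom) as alternatives. The code was tested on simulated data. Same-numbered libraries are not stated to be paired. The members and lists were chosen with earlier results of these data known. Named genes are all members found and, from each list, up to 4 called genes, the 2 of smallest p and the 2 of highest mean RPKM. Some genes picked by this rule are not reported here. Other genes were named after their values were seen (CD80, CDKN1B, SDC1, TNFRSF17 and the markers without reads). With 2 libraries a group, an exact permutation test cannot go below 0.333, so single values were given no such test.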

Additional observations from a re-analysis of the deposited data

How the results depend on the processing

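No factor was called under any of the 13 alternatives tried for the counts of calls. Over all genes, 37 were higher and 1 lower as reported. The counts higher were 24 with limma-voom, 78 with no filter and 73 with the replicate block, and 2 to 82 with a library left out (2 without WT replicate 2, 82 without R1810A replicate 2). The counts lower were 2 with DESeq2, 7 with no filter, 5 with the deposited total reads, 4 with robust edgeR and 4 with the replicate block, and 0 to 11 with a library left out (11 without WT replicate 1). The median of the factors was -0.097 with the deposited total reads, where that of all genes was -0.126, and with a library left out lay between -0.078 and 0.068. A group reduced to 1 library is assumed to vary like the other group.

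The direction of a single factor turned in 11 of 112 refits, those of IRF4 and BCL6 among them. With the deposited total reads EBF1 moved from 0.02 to -0.10, POU2F2 from 0.03 to -0.093 and IRF8 from 0.08 to -0.04. The median of all genes moved by about as much, from -0.005 to -0.126. With upper-quartile scaling EBF1 was at -0.002. When single libraries were dropped, PAX5 ranged from -0.24 to 0.18, EBF1 from -0.045 to 0.099, POU2F2 from -0.002 to 0.064, BCL6 from -0.15 to 0.59 and IRF4 from -0.24 to 1.39. XBP1 and POU2AF1 were negative in all 14 alternatives each. The replicate block gave XBP1 -0.32 (edgeR adjusted p = 0.436) and changed no call among the factors. Same-numbered libraries did not deviate together (correlation over genes -0.040), so the numbers are not taken as pairs. The order of the factors by RPKM was the same with TMM scaling. Depth limits PRDM1 most, at 3 to 11 reads a library.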
